A study of Mus musculus with 4 samples.

Results

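IgM plasma cells were examined among CD45+ leukocytes of subcutaneous KPC tumours by single-cell RNA sequencing. IgM plasma cells were selected on these measured values: a barcode held 300 to 5000 genes and at most 6% mitochondrial UMIs and had at least 1 UMI of Mzb1, Derl3, Tnfrsf17 or Sdc1 and none of Ms4a1, and it carried at least 20 UMIs of immunoglobulin heavy-chain constant genes of which at least 70% were Ighm. The rule found 178 cells among 51841 barcodes within the limits on genes and mitochondrial UMIs, and the same rule with 70% of the UMIs from the 4 Ighg genes found 556 IgG plasma cells. KPC is a carcinoma line from a pancreatic tumour of a genetically engineered mouse, and it was grown under the skin of male C57BL/6 mice. The 4 groups were untreated mice and mice given the STING agonist ADU-S100, the LTbR (lymphotoxin-β receptor) agonist antibody 4H8 or both agonists (combination). ADU-S100 was injected into the tumour once, at the start, and 4H8 was given repeatedly into the peritoneum. Tumours were taken after the last antibody dose, well after the single ADU-S100 injection. All 4 groups carried the same tumour line, and tumours of a group were pooled before live CD45+ cells were sorted into 1 library per group. No treatment difference therefore has a replicate, and no p-value is given between groups. The intervals given for shares and ratios are 95% intervals that cover counting error only.

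A plasma cell is the antibody-secreting end stage of a B cell. It silences the B cell programme, builds a large endoplasmic reticulum and spends much of its RNA on immunoglobulin. IgM is the first isotype a B cell makes, before class switching replaces the μ constant region by γ, α or ε, and it is secreted as a polymer held together by disulfide bonds and closed by the J chain. In the mouse, much natural IgM comes from B-1 cells, an innate-like lineage best known from the body cavities. A classical B-1 receptor pairs the heavy-chain V gene Ighv11-2 with the light-chain V gene Igkv14-126 and binds phosphatidylcholine.

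The germline V exons of this receptor, and of the λ gene Iglv2 used by part of the IgM cells, are shown because the receptor results below turn on them. They are GENCODE M21 sequences on GRCm38, read 5′ to 3′ on the coding strand, and lie in coding exon 2 of each gene. Capitals mark the germline start of the third complementarity-determining region, from the last in-frame cysteine codon to the end of the exon.
Ighv11-2 at chr12:114048241-114048540, minus strand, last 300 bases of the exon: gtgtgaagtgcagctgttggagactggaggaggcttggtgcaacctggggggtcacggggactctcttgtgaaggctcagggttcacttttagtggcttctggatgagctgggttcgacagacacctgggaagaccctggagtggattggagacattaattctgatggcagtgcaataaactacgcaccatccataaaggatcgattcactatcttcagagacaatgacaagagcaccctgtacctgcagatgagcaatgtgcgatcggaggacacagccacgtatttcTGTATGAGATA
Igkv14-126 at chr6:67896345-67896642, plus strand: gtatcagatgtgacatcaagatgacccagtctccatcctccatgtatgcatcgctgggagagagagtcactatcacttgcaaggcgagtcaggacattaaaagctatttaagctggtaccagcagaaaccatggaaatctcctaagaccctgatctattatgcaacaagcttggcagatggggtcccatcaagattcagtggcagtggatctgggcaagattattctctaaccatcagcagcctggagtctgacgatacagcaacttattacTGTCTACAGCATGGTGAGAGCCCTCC
Iglv2 at chr16:19260401-19260700, minus strand, last 300 bases of the exon: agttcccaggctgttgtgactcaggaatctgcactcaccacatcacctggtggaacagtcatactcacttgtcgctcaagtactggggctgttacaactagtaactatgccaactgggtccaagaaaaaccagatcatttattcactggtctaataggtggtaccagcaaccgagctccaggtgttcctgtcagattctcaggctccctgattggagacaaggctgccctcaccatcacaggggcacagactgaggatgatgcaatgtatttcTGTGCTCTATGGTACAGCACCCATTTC
The UMI counts in the files were made per gene, so they show which V gene a cell transcribed and not its rearranged sequence. The V exons of Iglv1 and Iglv2 are identical at 296 of 305 bases, so the split of UMIs between these paralogs is uncertain.

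The untreated library held 5 IgM plasma cells, the STING agonist library 6, the LTbR agonist library 46 and the combination library 121. Their median depth was 21649, 19190, 10499.5 and 5970 UMIs per cell in this order. Of these UMIs, a median of 16.4%, 34.1%, 48.1% and 40.3% came from immunoglobulin genes. All other levels below are therefore given as CPM with the UMIs outside the 390 immunoglobulin features as the total. The combination members were the shallowest and the few untreated and STING agonist members the deepest. Over whole libraries, the total ranged from 52109958 UMIs in 16322 barcodes (combination) to 85855398 in 15404 (STING agonist). Pairs of libraries shared 34 to 83 barcode sequences.

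The cells carried the features of plasma cells that the rule did not use. Jchain, which closes the IgM polymer, was detected in 5 of 5, 6 of 6, 46 of 46 and 119 of 121 members in the order untreated, STING agonist, LTbR agonist and combination, an order kept for all lists of 4 values that follow. Xbp1, the secretory transcription factor, was detected in 5, 6, 42 and 111 members, Irf4 in 5, 5, 41 and 90, and Prdm1, the repressor of the B cell programme, in 3, 6, 41 and 82. The B cell factor Pax5 gave 8 UMIs, in 2 combination members. Of the genes the rule did use, Ighd, transcribed by naive B cells beside Ighm, gave 1 UMI in all members together, and Mzb1 was detected in 5, 6, 42 and 104 members and Tnfrsf17 in 3, 4, 27 and 43.

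Few members lay near the cutoffs on heavy-chain UMIs and Ighm share. Members with 20 to 49 heavy-chain UMIs numbered 0, 0, 1 and 6, and barcodes that missed the rule with 10 to 19 such UMIs numbered 6, 3, 3 and 8. Members with an Ighm share of 70% to under 90% numbered 0, 0, 0 and 2, and 0, 0, 1 and 1 barcodes missed with 50% to under 70%. The marker requirement was nearer the data, since 1, 1, 2 and 28 members rested on a single marker gene. Barcodes that met all else with no marker gene numbered 0, 0, 4 and 29, and 4 and 25 of the last 2 counts had a Jchain UMI. The cutoff on Ms4a1 also weighed on membership. Barcodes that met all else but held an Ms4a1 UMI numbered 2, 5, 51 and 60, beside 5, 6, 46 and 121 members. Shares with these barcodes counted in were not computed.

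Free immunoglobulin RNA was present in every library. An Ighm UMI was found in 25.2%, 23.1%, 42.5% and 45.4% of T cells, which do not transcribe the gene, at median depths of 4211, 4523, 3419 and 2293 UMIs. At least 20 heavy-chain UMIs were found in 0%, 0%, 0.109% and 0.336% of T cells, while the members' median was 1461, 2630, 2057.5 and 1019. In C1q+ macrophages, the share with at least 20 was higher, at 0.347%, 0.245%, 0.959% and 1.80%, with a Mzb1 UMI in 0.925%, 0.337%, 1.84% and 2.95%, at median depths of 8464.5, 8935, 6270.5 and 4266.5 UMIs. Transcripts of other lineages were also found. Members with at least 5 UMIs of T cell, macrophage, neutrophil, NK cell or carcinoma markers numbered 2, 3, 7 and 28, and 2, 3, 5 and 24 members had at least 5 UMIs of the macrophage markers alone. The 6 macrophage markers summed to 7096, 1620, 1989 and 2647 CPM, the 5 T cell markers to 139, 0, 3.91 and 18.5 CPM, and the 3 NK cell markers were at 0. The part of these mixed barcodes in the results was not tested beyond leaving them out.

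**Figure D1:**
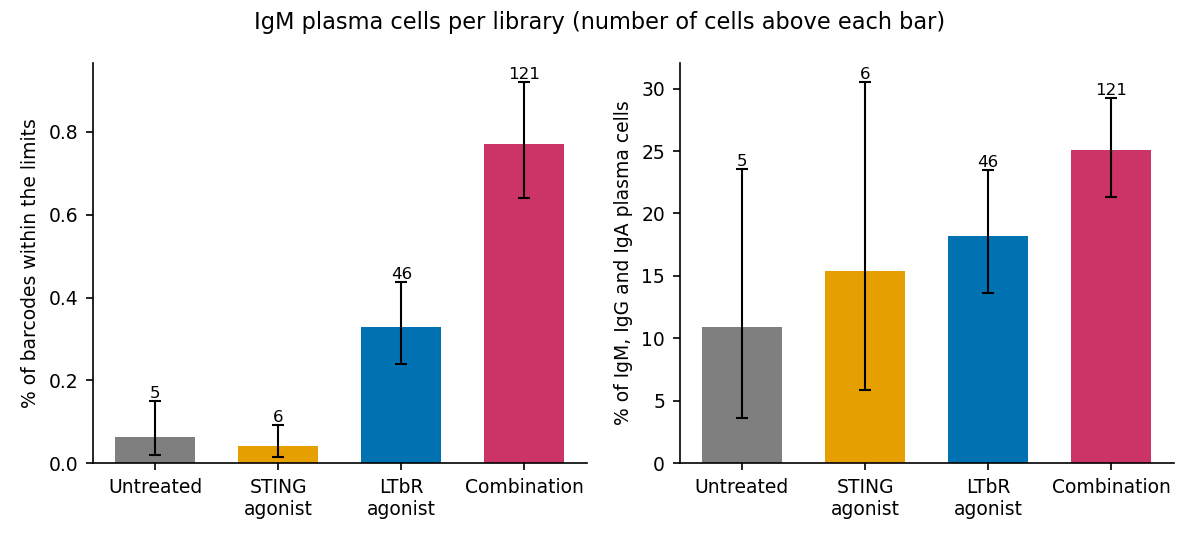
Bars give IgM plasma cells of each library as a percentage of barcodes within the limits (left) and of IgM, IgG and IgA plasma cells (right), from 0, with 95% Clopper-Pearson intervals that cover counting error only and the number of cells above each bar. The combination library was highest on both scales, at 0.771% of barcodes and 25.1% of plasma cells.

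IgM plasma cells made up 0.0643% of barcodes in the untreated library (0.0209 to 0.150), 0.0419% in the STING agonist library (0.0154 to 0.0911), 0.328% in the LTbR agonist library (0.240 to 0.437) and 0.771% in the combination library (0.640 to 0.920). The 2 libraries that received the LTbR agonist stood above the other 2 with no overlap of intervals, and combination stood above LTbR agonist alone. The share with combination was 2.35 times that with LTbR agonist (1.68 to 3.30) and 11.99 times that of untreated tumours (4.90 to 29.3). With at least 2 of the 4 marker genes required, the share was 0.313% with LTbR agonist and 0.592% with combination, which are closer together. LTbR agonist alone gave 5.10 times the untreated share (2.03 to 12.8). The ratio of STING agonist to untreated was 0.651 (0.199 to 2.13), an interval that holds 1, and it turned to 1.20 with barcodes thinned to 2000 UMIs. Thinning leaves out shallower barcodes and applies the rule to the drawn UMIs. A barcode can therefore enter when its Ms4a1 UMIs are not drawn, and members numbered 4, 8, 51 and 115. Thinned in this way, the ratio to untreated was 20.6 for combination and 7.49 for LTbR agonist. With at least 10 heavy-chain UMIs, which brings 6 more untreated cells in, these were 5.81 and 2.47, so ratios to the 5 untreated cells are loose in size. These shares used the same values that chose the members and are a description.

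The IgM fraction of plasma cells moved less. Of 46, 39, 253 and 482 plasma cells, 10.9%, 15.4%, 18.2% and 25.1% were IgM. Combination exceeded LTbR agonist 1.38 times on this scale (1.02 to 1.87) and untreated tumours 2.31 times (0.995 to 5.36), the latter interval holding 1. IgG plasma cells took 80.4%, 71.8%, 72.3% and 63.9%, and IgA plasma cells 8.70%, 12.8%, 9.49% and 10.996%. Ms4a1+ B cells numbered 2, 0, 52 and 67.

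The V genes of the receptor were no part of the rule. A heavy and a light V gene could be called in 5, 6, 45 and 115 members, a gene being called when it held over 50% of the cell's V UMIs of that chain and at least 3 UMIs. The most frequent pair over all 171 such cells was Ighv11-2 with Igkv14-126, in 3, 0, 4 and 7 members. That is 14 of 171 IgM cells, or 8.19% (4.55 to 13.4), against 0 of 534 IgG cells, which allows a share of up to 0.562%, and 0 of 81 IgA cells, which allows up to 3.70%. The pair was chosen as the most frequent among these same cells, and the interval pools libraries and takes cells as independent. Absence from IgG cells was common, since only 11 of 105 different IgM pairs were also called in an IgG cell. Ighv11-2/Igkv14-126 was the only IgM pair found in 3 libraries. Its share was 60.0% of the 5 untreated cells, 8.89% with LTbR agonist (2.48 to 21.2) and 6.09% with combination (2.48 to 12.1), and the last 2 intervals overlap widely.

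These 14 cells transcribed the pair at levels far above free RNA. Each held 10 to 755 UMIs of Ighv11-2 and 100 to 8477 of Igkv14-126, along with 240 to 5048 heavy-chain and 15 to 875 Jchain UMIs. In T cells, Ighv11-2 reached at most 1 UMI and was found in 0.512%, 0%, 0% and 0.0839% of cells, and Igkv14-126 reached at most 2 UMIs. Of the 14 cells, 1 passed the cycling criterion used below, against 27 of the other 164 members, and 4 carried at least 5 other-lineage UMIs. The surface marker Cd5, expressed by a subset of B-1 cells, gave no UMI in LTbR agonist or combination members. A shared V gene pair is not proof of a shared clone, since the junctions were not read.

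**Figure D2:**
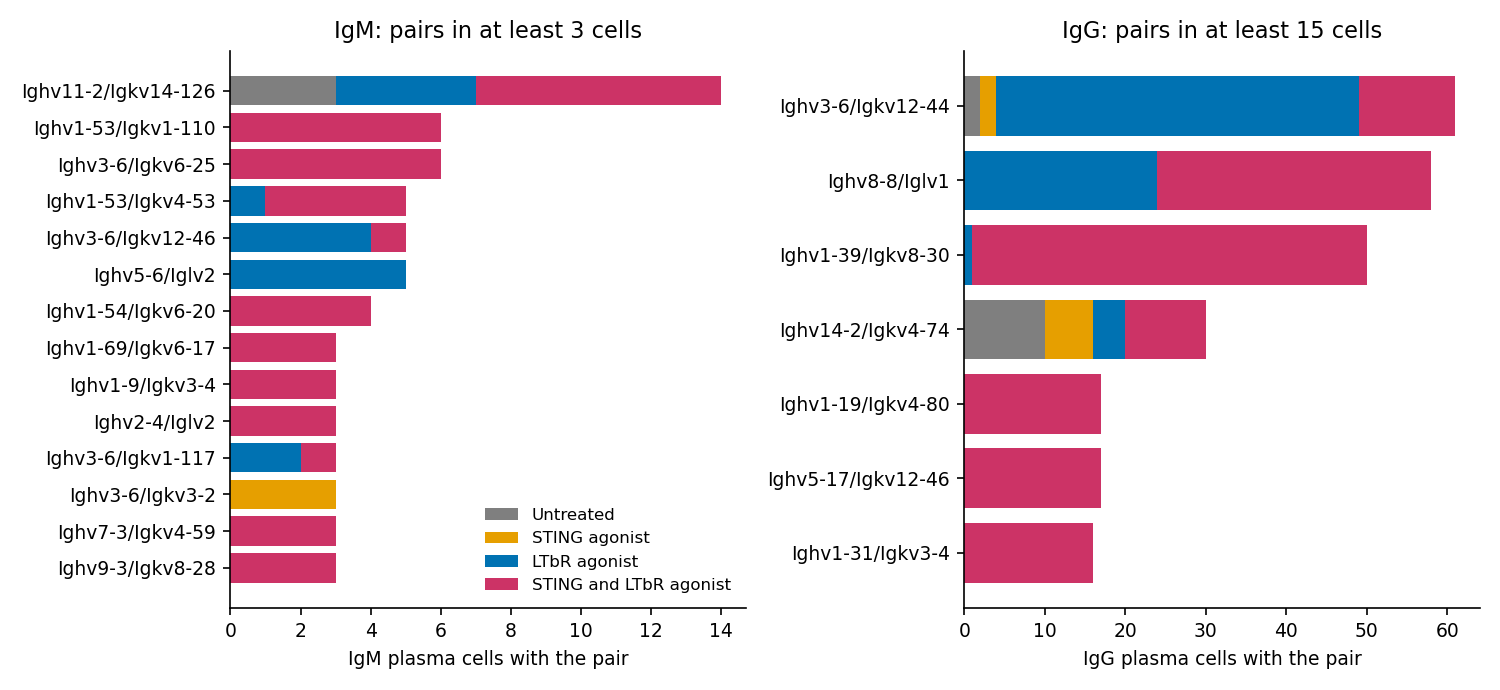
Stacked bars give the number of cells with each V gene pair, colored by library, for pairs in at least 3 IgM cells (left) and at least 15 IgG cells (right). Ighv11-2/Igkv14-126 leads the IgM cells with 3, 0, 4 and 7 cells, and none of the pairs shown for IgG is among those shown for IgM.

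The 171 cells used 105 different pairs, of which 77 occurred in 1 cell and 6 in at least 2 libraries. Ighv1-53/Igkv1-110 and Ighv3-6/Igkv6-25 occurred in 6 combination members each, and Ighv3-6/Igkv12-46 in 4 LTbR agonist members and 1 combination member. Ighv3-6/Igkv3-2 took 3 of the 6 STING agonist members and Ighv5-6/Iglv2 took 5 LTbR agonist members, so Ighv11-2/Igkv14-126 was not the largest pair of these 2 libraries. The LTbR agonist and combination libraries had 6 pairs in common, 19.4% of the LTbR agonist pairs and 8.11% of the combination pairs.

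The IgG cells of the same tumours were dominated by other receptors. Their largest pairs were Ighv3-6/Igkv12-44 in 45 LTbR agonist cells, Ighv1-39/Igkv8-30 in 49 combination cells and Ighv8-8/Iglv1 in 24 and 34 cells of these libraries. Only the last of these was found in IgM cells, in 2 combination members. In all, 11 of the 105 IgM pairs were also called in an IgG cell, and 9 members (0, 0, 2 and 7) shared a pair with an IgG cell of their own library. The chance that 2 different cells of a library shared a pair, the Simpson index, was 2.63% for IgM and 8.77% for IgG with LTbR agonist, and 1.33% and 5.68% with combination. In the untreated and STING agonist libraries the index was 30% and 20% for the 5 and 6 IgM cells against 9.37% and 8.47% for IgG. Distinct pairs per 100 cells were 60, 66.7, 68.9 and 64.3 in IgM and 52.8, 46.4, 33.9 and 23.9 in IgG cells. IgM was higher in 4 of 4 libraries, by 25.7 on average (SD 15.004), with p = 0.13 in an exact two-sided permutation test by sign flips, the smallest value that 4 pairs allow. This ratio falls as more cells are sampled, and IgG cells outnumbered IgM cells in each library.

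**Figure D3:**
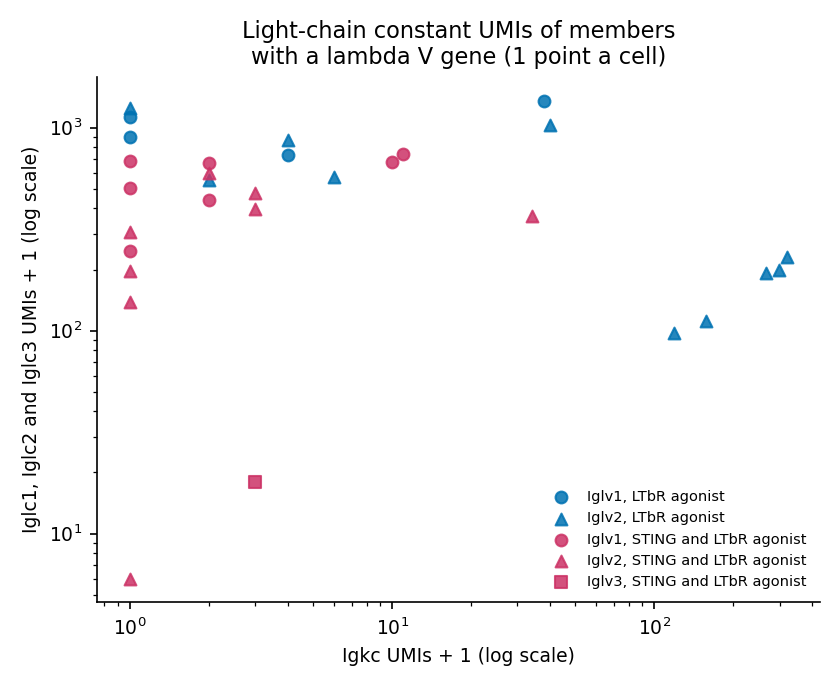
UMIs of Igkc (horizontal) and of Iglc1, Iglc2 and Iglc3 together (vertical), each plus 1 on a log axis, for IgM plasma cells whose leading light V gene was a λ gene, 1 point per cell, with color for the library and shape for the V gene. Most cells held few Igkc UMIs, and 5 LTbR agonist cells with Iglv2 lie apart at 118 to 319 Igkc UMIs.

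The light chain completes the receptor and is κ in most mouse cells. λ was the leading constant gene in 0 of 5, 0 of 6, 9 of 46 and 17 of 120 members, the last 2 being 19.6% and 14.2%. Pooled over libraries, 26 of 177 IgM cells were λ, 14.7% (9.83 to 20.8), against 71 of 552 IgG cells, 12.9% (10.2 to 15.9). Iglc2 was the leading constant gene in 5 LTbR agonist and 7 combination IgM cells, against 0 and 1 IgG cells. Iglc1 led in 4 and 10 IgM cells against 27 and 43 IgG cells. Iglv2 was the leading V gene in 10 and 8 IgM cells against 0 and 2 IgG cells and no IgA cell, and Iglv1 in 4 and 7 against 28 and 46. The IgG λ cells were largely the Ighv8-8/Iglv1 cells named above, and 8 of the 18 Iglv2 IgM cells were of the pairs Ighv5-6/Iglv2 and Ighv2-4/Iglv2, so cells that share a pair weigh on these counts, and the Iglv1 and Iglv2 split is uncertain as said.

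Among the Iglv2 cells, 5 cells with LTbR agonist and Ighv5-6 transcribed both a κ and a λ chain. They were noticed after the values were seen. They held 118 to 319 Igkc and 94 to 226 Iglc2 UMIs, at ratios of Igkc to Iglc2 of 1.26 to 1.52. Their leading κ V gene was Igkv8-16 in 5 of 5, with 12 to 39 of 13 to 41 Igkv UMIs, and they held 0 to 2 UMIs of other-lineage markers. Over all members, 0, 0, 6 and 4 had over 10% of light-chain UMIs from each of κ and λ, and 0, 0, 3 and 6 IgG cells did. In combination, 3 Ighv2-4/Iglv2 members held 138, 194 and 305 Iglc1 UMIs with 0 or 1 Iglc2 UMI.

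Next, IgM and IgG plasma cells of the same libraries were compared gene by gene on UMIs summed per library and class, with the library as a block. Each library is a pool of tumours under another treatment, so the spread measured is that between 4 pools. Of 4330 genes tested, 30 passed (0.693%), of which 22 were higher in IgM cells (0.508%) and 8 were lower (0.185%), at an adjusted p under 0.05 in edgeR's quasi-likelihood test. The genes that were higher included Txndc5 and Jchain of the secretory route, the cytokine receptor chain Il5ra, the survival gene Bcl2 and the amino acid transporter chain Slc3a2. Slpi, a secreted protease inhibitor, was the largest difference in the other direction. Without the LTbR agonist library, edgeR called 4 genes higher, namely Txndc5, Jchain, Il5ra and Tnfrsf17, and 0 lower, with 358 genes at an unadjusted p under 0.05, and the other calls below were lost or, for Ccl7, had no test. Without the untreated, STING agonist or combination library 12, 46 and 11 genes were higher and 4, 16 and 5 lower. Calls of Bcl2, Bach2, Egr1, Pycard, Psip1, Rab27a, Gdap2, Ccl7, Apoe, Cxcl16 and Slpi were lost without the untreated and also without the combination library, those of Ctla4 and Ly6a2 without untreated, and those of Btla and Neil1 without combination. With immunoglobulin genes in the totals, Txndc5, Il5ra, Cdk14, Serpina3g and Tnfrsf17 were still called among the genes named here. All of these differences are log2 values of IgM over IgG from the fit over 4 libraries. The standard error (SE) beside each is its absolute value divided by the square root of the quasi-likelihood F value.

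**Figure D4:**
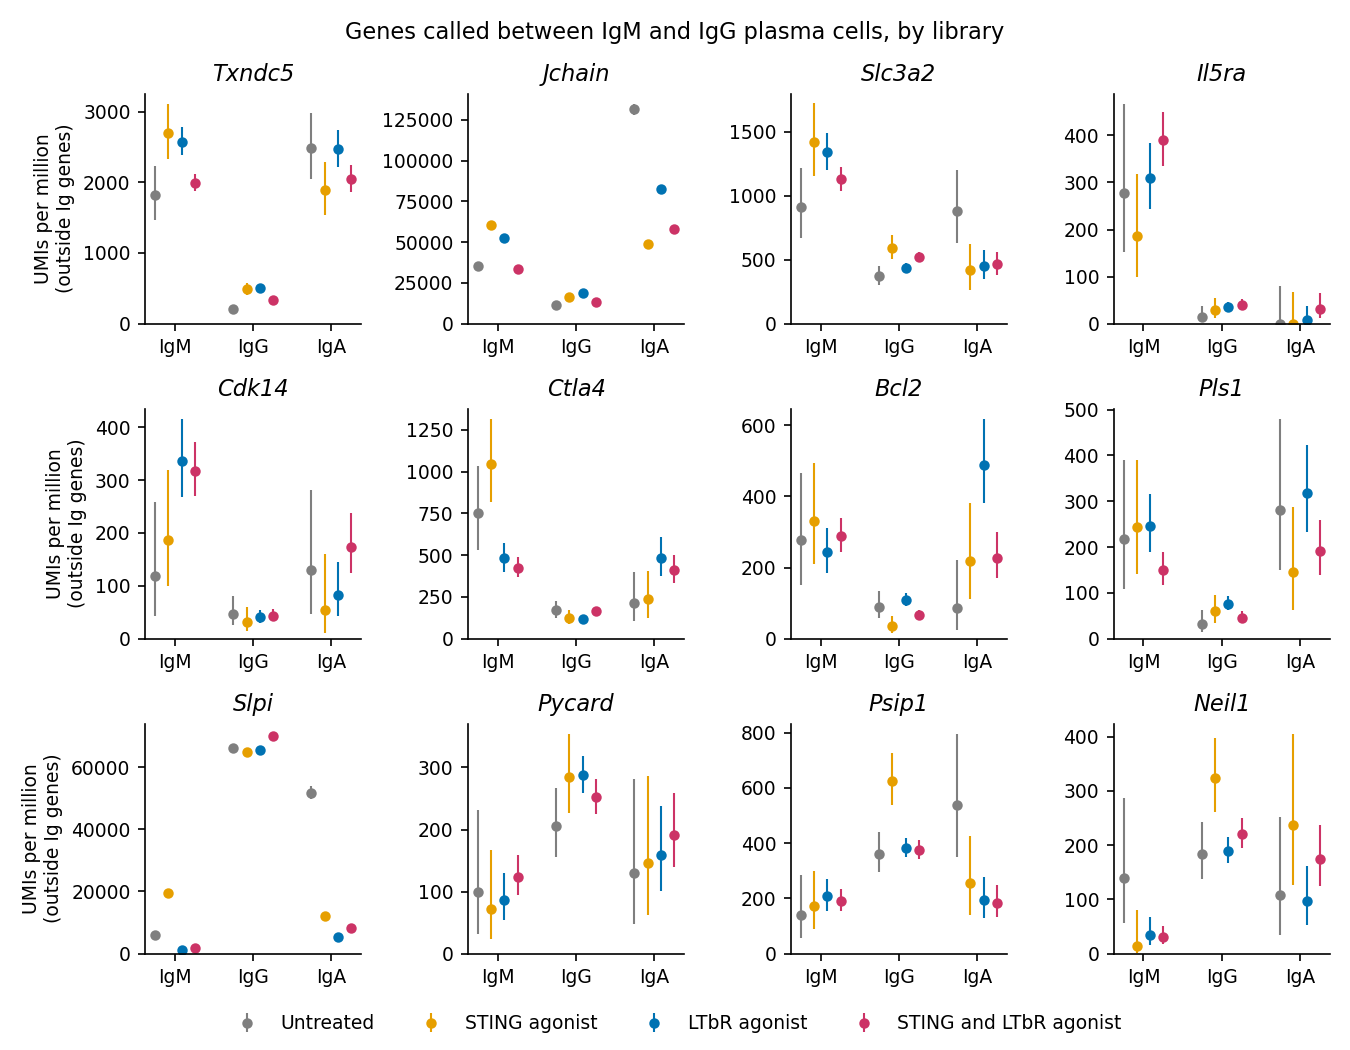
CPM of selected genes in IgM, IgG and IgA plasma cells, 1 point per library, on linear axes that start at 0, with 95% Poisson intervals that cover counting error only. Txndc5 and Il5ra are higher and Slpi lower in IgM than in IgG cells in each of the 4 libraries, and Txndc5 lies in a like range in IgA and IgM cells.

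Txndc5 (ENSMUSG00000038991), a disulfide isomerase of the endoplasmic reticulum, stood at 1823, 2695, 2571 and 1994 CPM in IgM cells. IgG cells had 202, 489, 498 and 340 CPM, so the classes did not overlap. The difference was 2.60 (SE 0.17; edgeR adjusted p = 0.000139), and it was called in all 11 alternative settings tried. IgA cells had 2479, 1890, 2467 and 2044 CPM, within or beside the IgM range.

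Jchain (ENSMUSG00000067149) stood at 35122, 60771, 52792 and 33756 CPM in IgM cells against 11654, 16427, 18771 and 13174 CPM in IgG cells. Every IgM value exceeded every IgG value, and the difference was 1.57 (SE 0.16; edgeR adjusted p = 0.00149). IgA cells had 131500, 48680, 82500 and 57850 CPM, above IgM cells in 3 of 4 libraries. The call was lost with immunoglobulin genes kept in the totals (edgeR adjusted p = 0.218). Per cell, median Jchain UMIs were 222, 403.5, 263 and 91 in IgM and 69, 133, 97 and 27 in IgG cells, with p = 0.13 in an exact two-sided permutation test by sign flips.

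Il5ra (ENSMUSG00000005364), the ligand-binding chain of the interleukin-5 receptor and a gene of B-1 cells and eosinophils, stood at 277, 186, 309 and 389 CPM in IgM cells. It was detected in 3, 4, 29 and 48 members. IgG cells had 14.5, 28.1, 34.6 and 39.5 CPM and IgA cells 0, 0, 6.89 and 31.2 CPM, all below the lowest IgM value. The difference from IgG was 3.25 (SE 0.27; edgeR adjusted p = 0.000552), called in all 11 alternative settings.

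Slpi (ENSMUSG00000017002) was the reverse. IgG cells had 66095, 64886, 65579 and 70089 CPM, a narrow range. IgM cells had 6125, 19407, 1051 and 1767 CPM, and 92.6% of the untreated UMIs and 89.6% of the STING agonist UMIs lay in 1 cell each. The difference was -4.18 (SE 0.67; edgeR adjusted p = 0.0259). It kept its direction in all 11 alternatives and its call in 7, and was lost with immunoglobulin genes in the totals or without the untreated, LTbR agonist or combination library (edgeR adjusted p up to 0.172). IgA cells had 51830, 11970, 5472 and 8131 CPM, between IgM and IgG in 3 libraries and below both with STING agonist.

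Several other surface and signalling genes were higher in IgM cells. Cdk14, a kinase of the Wnt pathway, had 119, 186, 336 and 317 CPM against 47.0, 31.7, 40.9 and 43.6 CPM in IgG cells (2.62, SE 0.29; edgeR adjusted p = 0.00390). Ctla4, an inhibitory receptor that is also found on B-1 cells, had 753, 1046, 481 and 424 CPM against 170, 123, 116 and 164 CPM (2.10, SE 0.29; edgeR adjusted p = 0.0129), with 50% of the untreated and 65.8% of the STING agonist UMIs in 1 cell each. The T cell markers gave 7, 0, 1 and 9 UMIs in the same members, in which Ctla4 gave 38, 73, 123 and 206. Btla, another inhibitory receptor, had 99.1, 172, 58.6 and 74.1 CPM against 0, 17.6, 14.1 and 9.05 CPM, from 5 to 36 UMIs per library in IgM cells.

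The other named genes higher in IgM cells were Serpina3f, Serpina3g, Egr1, Ccl7 and Tnfrsf17. Serpina3g, an intracellular protease inhibitor, had 575, 788, 504 and 247 CPM against 119, 200.6, 103 and 100.3 CPM (1.93, SE 0.24), with 87.3% of the STING agonist UMIs in 1 cell. Its relative Serpina3f had 1784, 502, 266 and 167 CPM against 25.3, 84.4, 40.1 and 56.7 CPM (2.98, SE 0.56), with 75.6% and 97.1% of the first 2 libraries' UMIs in 1 cell each. Since these are related members of a multigene family, the split between them is uncertain. Egr1, an early-response transcription factor, had 337, 1118, 309 and 278 CPM against 83.1, 84.4, 104 and 77.3 CPM (2.22, SE 0.36), with 88.2% of the untreated UMIs in 1 cell. Ccl7, a chemokine of macrophages, differed by 2.10 (SE 0.34), but 97.9% of its 47 UMIs in LTbR agonist members lay in 1 cell and the STING agonist members had none. Apoe and Cxcl16, also among the 22 and taken up here after their values were seen, are like Ccl7 abundant in C1q+ macrophages of these libraries, at 5402 to 6904 and 663 to 738 CPM. Without mixed-lineage cells, these 3 genes, and Bach2 and Ly6a2 below, fell under the filter on low counts and had no test. Tnfrsf17, the BCMA receptor for the survival factor APRIL, had 99.1, 258, 238 and 150 CPM against 14.5, 28.1, 45.6 and 14.8 CPM. It belongs to the rule in both classes and is given as a description.

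Besides Slpi, 6 named genes were lower in IgM cells. Neil1, a DNA glycosylase, had 139, 14.3, 35.2 and 30.9 CPM against 184, 324, 189 and 221 CPM in IgG cells (-2.42, SE 0.43; edgeR adjusted p = 0.0411). Pycard, the inflammasome adaptor ASC, had 99.1, 71.7, 86.0 and 124 CPM against 206, 285, 288 and 252 CPM (-1.44, SE 0.25). Psip1, a chromatin reader, had 139, 172, 207 and 192 CPM against 361, 626, 381 and 376 CPM (-1.21, SE 0.22). Rab27a, a GTPase of vesicle release, Gdap2 and Ly6a2 differed by -1.84 (SE 0.33), -1.92 (SE 0.35) and -3.26 (SE 0.51). Ly6a2 gave 7 UMIs in all members and has near copies in the Ly6 family, so its assignment is uncertain. Without mixed-lineage cells the calls of Psip1 (-0.83, edgeR adjusted p = 0.0953) and Rab27a (-1.66, edgeR adjusted p = 0.0616) were lost. In these 6 genes each library's IgM value was below its IgG value.

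By role, none of 10 plasma cell transcription factors passed the test in either direction, with a median difference of -0.09 against -0.01 over all 4330 genes. Xbp1 differed by -0.44 (SE 0.15; edgeR adjusted p = 0.227), Prdm1 by 0.00 (SE 0.23) and Irf4 by -0.11 (SE 0.18). Of 22 chaperones and folding enzymes of the endoplasmic reticulum only Txndc5 passed, beside 0.693% of all genes tested, and the median was -0.08. The chaperone Hspa5 differed by -0.01 (SE 0.23) and Hsp90b1 by -0.55 (SE 0.16; edgeR adjusted p = 0.162). Of 8 genes of polymeric IgM assembly, Jchain and Txndc5 were higher, beside 0.508% of all genes tested, while Erp44, which retains unfinished IgM, differed by -0.50 (SE 0.21; edgeR adjusted p = 0.324). None of 22 genes of translocation and N-glycosylation and none of 19 of export and degradation passed.

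Of 13 survival receptors and surface genes, Slc3a2 and Bcl2 were higher besides Tnfrsf17 of the rule, where 0.508% of all genes tested were. Slc3a2, the heavy chain of CD98, had 912, 1419, 1340 and 1129 CPM against 372, 595, 439 and 519 CPM in IgG cells (1.31, SE 0.16; edgeR adjusted p = 0.00701). Bcl2, which blocks apoptosis, had 277, 330, 242 and 288 CPM against 90.3, 35.2, 109 and 65.8 CPM (1.89, SE 0.33; edgeR adjusted p = 0.0398). Of 10 B cell identity genes, Bach2, a repressor of plasma cell differentiation, was higher at 119, 129, 129 and 157 CPM against 32.5, 28.1, 38.5 and 53.5 CPM (1.70, SE 0.25; edgeR adjusted p = 0.0189). The MHC class II genes H2-Aa, H2-Ab1 and H2-Eb1 differed by 1.26, 1.11 and 1.19 with SE of 0.34 to 0.35 and did not pass.

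In the remaining lists, to be read beside 0.693% of all genes tested, 1 of 6 genes of B-1 and innate-like origin passed (Ctla4), 1 of 10 early-response and heat shock genes (Egr1), and 1 of 10 genes of the amino acid response (Slc3a2). None passed among 10 homing genes, 10 mitosis genes, 19 interferon-stimulated genes, 20 metabolic genes, 2 class-switching genes, 9 components of the agonists' pathways and 4 cytokines and inhibitory ligands. Il10, the anti-inflammatory cytokine, stood at 238, 473, 649 and 410 CPM in IgM cells and was detected in 52.2% of LTbR agonist and 43.8% of combination members. Its difference from IgG was 1.06 (SE 0.31; edgeR adjusted p = 0.165). Cd274, encoding PD-L1, stood at 991, 573, 547 and 435 CPM and differed by 0.12 (SE 0.30).

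**Figure D5:**
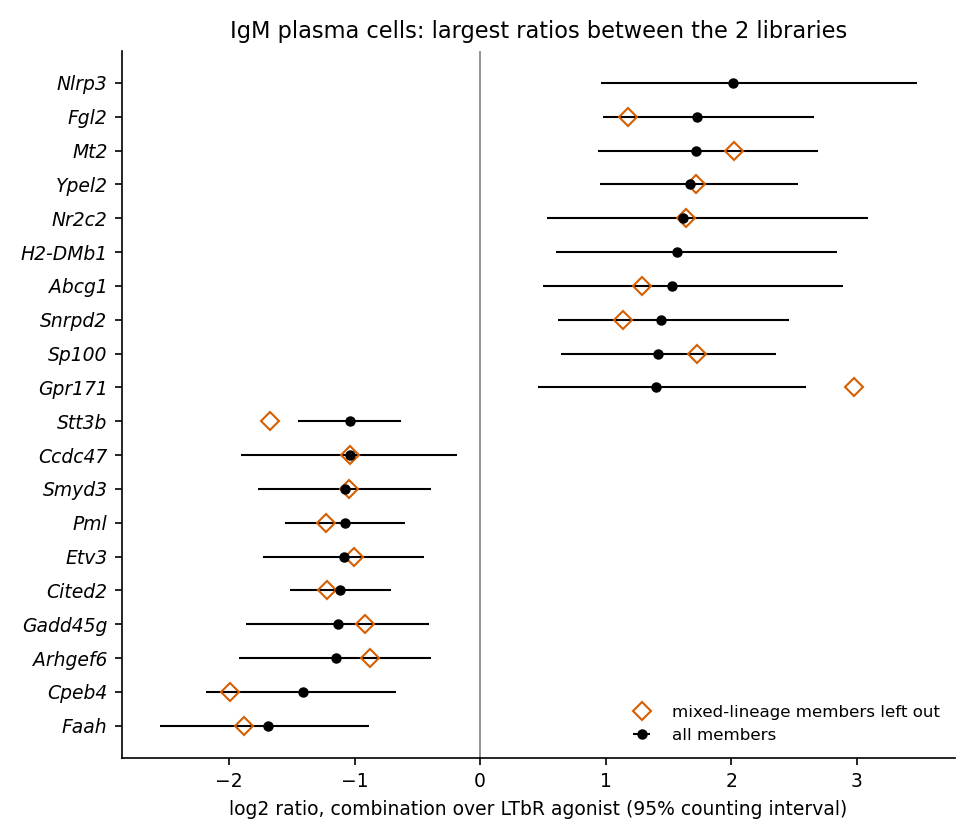
Log2 ratio of combination to LTbR agonist in IgM plasma cells for the named genes, with 95% counting intervals and, as diamonds, the ratio without mixed-lineage members. Diamonds are missing for Nlrp3 and H2-DMb1, for which 2 and 1 UMIs remained, and those of Gpr171 and Stt3b fall outside the intervals.

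The combination and LTbR agonist members were then set side by side, since these libraries hold 167 of the 178 cells. Among 2677 genes with at least 50 UMIs over both, 66 were over 2-fold higher with combination (2.47%) and 36 over 2-fold lower (1.34%), and the median log2 ratio was 0.03. In 45 of these 102 genes a single cell held over 20% of the UMIs in the higher library. With all UMIs as the total the split became 115 higher and 15 lower and the median ratio 0.19.

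Among genes not resting on a single cell, the largest ratios towards combination were Nlrp3 at 27.4 against 117 CPM, Fgl2 at 58.6 against 200 CPM and Mt2 at 54.7 against 185 CPM. Nlrp3, an inflammasome sensor of myeloid cells, had a log2 ratio of 2.01 (0.97 to 3.48), and 0 and 2 UMIs remained without mixed-lineage members. Fgl2, a secreted immunoregulator, had 1.73 (0.98 to 2.66), with 1.17 without those members. Mt2, a metal-binding stress protein, had 1.72 (0.94 to 2.69), and was detected in 9 of 46 and 31 of 121 cells. The other genes were Ypel2, Nr2c2, H2-DMb1, Abcg1, Snrpd2, Sp100 and Gpr171, at 1.40 to 1.67. In IgG cells the ratio of Mt2 was -0.65 and that of Fgl2 -0.02.

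Towards LTbR agonist, the largest ratio among genes not resting on a single cell was that of Faah, which degrades anandamide. It stood at 141 CPM with LTbR agonist and 43.3 CPM with combination, in 19 of 46 and 18 of 121 cells, a log2 ratio of -1.69 (-2.55 to -0.89). In IgG cells it was -0.05 (-0.73 to 0.63). Cpeb4, a translational regulator, had 149 against 55.6 CPM, and Cited2, a transcriptional co-regulator, 442 against 204 CPM, in 22 and 46 cells. The ratios of Arhgef6, Gadd45g, Etv3, Pml, Smyd3, Ccdc47 and Stt3b were -1.15 to -1.04. Stt3b is a catalytic subunit of N-glycosylation and Pml the scaffold of nuclear bodies.

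In the plasma cell programme, none of 10 transcription factors passed 2-fold, and the intervals of Irf4 (-0.55), Prdm1 (-0.48), Pou2af1 (-0.33) and Zbtb20 (-0.31) lay below 0, as did those of 217 of all 2677 genes compared. As a mean over cells Zbtb20 turned to 0.24. Jchain was at -0.65 (-0.68 to -0.61) and also at -0.51 in IgG cells. None of 22 chaperones passed 2-fold, with a median of 0.15. Hsp90b1 stood at 5069 with LTbR agonist and 6216 CPM with combination (log2 ratio 0.29, but -0.22 as a mean over cells), and Mzb1 of the rule at 2724 and 3750 CPM. Interferon-stimulated genes, which the STING pathway drives, were over 2-fold higher in 0 of 17 and lower in 2, beside 1.34% of all genes compared. These were Ifi203 (-1.12) and Gbp7 (-1.03), at -0.89 and -0.97 without mixed-lineage members and so under 2-fold, with Ifi203 at -0.11 as a mean over cells. The median of the 17 was 0.11. Tumours were taken well after the single ADU-S100 injection, so an early response was not sampled. Of the 9 homing genes, Klf2, a factor for lymphocyte egress, was lower at 414 against 179 CPM (-1.21, -1.64 to -0.79). It was not among the genes named by rule, since over 20% of its LTbR agonist UMIs lay in 1 cell. None of 5 components of the agonists' pathways passed 2-fold.

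Among B cell genes, H2-Aa stood at 1032 with LTbR agonist and 2062 CPM with combination, H2-Ab1 at 1079 and 1780 CPM and H2-Eb1 at 1036 and 2020 CPM, log2 ratios of 1.00, 0.72 and 0.96. Without mixed-lineage members these were 1.73, 0.50 and 0.59. The untreated members had 4499, 4123 and 4618 CPM and the STING agonist members 172, 444 and 200.7 CPM, and macrophage markers were likewise highest in the untreated members. Of the early-response genes, Junb was at -0.61, Zfp36 at -0.64 and Jun at -0.51, none past 2-fold. Il10 was at -0.66 (-0.97 to -0.36).

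Proliferation gave 2 readings. A cell was counted as cycling with at least 2 UMIs summed over 6 mitotic genes. By this count 1 of 5, 1 of 6, 8 of 46 and 18 of 121 members were cycling, the last 2 being 17.4% (7.82 to 31.4) and 14.9% (9.06 to 22.5), intervals that overlap. IgG cells were cycling in 32.4%, 42.9%, 26.2% and 13.0%. IgM was lower in 3 of 4 libraries, by a mean of 11.4 percentage points (SD 11.6), with p = 0.25 in the exact two-sided permutation test by sign flips. In the summed UMIs of combination members, 4 of 6 mitosis and replication genes compared were over 2-fold higher, beside 2.47% of all genes compared, Hmgb2 at 2.07, Top2a at 1.34, Mki67 at 1.10 and Tuba1b at 1.06. Hmgb2 was not among the genes named by rule, since over 20% of its combination UMIs lay in 1 cell. The summed mitotic UMIs were 36 in LTbR agonist and 181 in combination members. The highest LTbR agonist cell held 5 of them, and 3 combination cells held 44, 36 and 26. The cell with 26 had 20 heavy-chain UMIs and no Jchain UMI, and it remains when mixed-lineage members are left out. Averaged over cells of equal weight, Mki67 was at 0.39, Top2a at 0.89, Tuba1b at 1.39 and Hmgb2 at 2.36. Without mixed-lineage members Mki67 was at 0.75 and Top2a at 0.90, both under 2-fold, while Hmgb2 was at 3.21 on 3 and 56 UMIs and Tuba1b at 1.51 on 2 and 12 UMIs. Thinned to 500 UMIs outside immunoglobulin genes per cell, 4.35% of LTbR agonist and 2.48% of combination members were counted as cycling.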

How the data were processed

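CD45+ cells of subcutaneous KPC tumours were profiled with a 10x Genomics 5′ kit, 1 library per treatment. The labels and the study's methods name different versions of this kit. The deposited files hold UMI counts per gene and barcode, which the authors made with Cell Ranger (8.0.1 in the file headers and 7.1.0 in the submitters' processing notes, which name mm10). Of 33696 gene IDs in the files, 1735 are not in GENCODE M21 on GRCm38, the annotation from which the V exons were read, so the authors' annotation was a different release. Counts were used as deposited. No doublet caller was run, and barcodes with other-lineage UMIs were left out as an alternative.

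Members and gene lists were chosen with earlier results of these data known. Barcodes with 300 to 5000 genes and at most 6% mitochondrial UMIs were kept. The 390 immunoglobulin features were left out of totals and tests, Jchain not being among them. IgM and IgG sums per library were compared with edgeR 4.0.16 (quasi-likelihood test, TMM, library as block, Benjamini-Hochberg, adjusted p under 0.05) in R 4.3.3 with limma 3.58.1, and with DESeq2 1.42.0 as an alternative. Between treatments, CPM with exact Poisson intervals, Clopper-Pearson intervals for shares, log-normal intervals for ratios of shares and exact binomial intervals for ratios of counts were computed in Python 3.11.15 (numpy 2.4.6, scipy 1.17.1, pandas 2.3.3), with 0.5 UMI added to each sum. The fits were tested on simulated data. A count of 0 allows 3 counts of the total. UMIs are taken as molecules, so the intervals leave out differences between mice.

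Genes were named by rule. Between IgM and IgG cells these were the 10 largest differences in each direction among called genes, leaving out immunoglobulin, mitochondrial, ribosomal protein, predicted and other-lineage marker genes. Between treatments these were the 10 highest and 10 lowest ratios with a counting interval leaving out 0 and at most 20% of UMIs in 1 cell of the higher library. Members of the gene lists were added as examples. Some items that the rules name are not reported here. Per-library measures were compared by an exact two-sided permutation test with sign flips.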

Additional observations from a re-analysis of the deposited data

Results flagged for a closer look

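In 5 measures per cell or per receptor pair, the difference of IgM from IgG plasma cells had 1 sign in the untreated and STING agonist libraries and the opposite sign in the LTbR agonist and combination libraries. The first pair of libraries holds 5 and 6 IgM cells. None of these differences between library pairs was tested. The median immunoglobulin percentage of UMIs in IgM cells was 16.4 and 34.1 against 41.1 and 40.4 in IgG cells of the first pair, and 48.1 and 40.3 against 40.3 and 39.4 in the second, a contrast of 19.91 percentage points between the mean differences. The median light-chain constant UMIs gave a contrast of -236.8, from 652 and 1290.5 against 598 and 1088 in the first pair and 954 and 449 against 1111 and 509 in the second. Median genes per cell gave -521.2, from 2776 and 3054.5 against 2423 and 2848.5 and from 1834 and 1499 against 2317 and 1499.5. The Simpson index of V gene pairs gave -21.33 percentage points and the share of cells in the largest pair -42.87 percentage points. The largest pair held 60% and 50% of IgM cells in the first pair of libraries and 11.1% and 6.09% in the second, against 27.8%, 21.4%, 25.4% and 16.7% of IgG cells.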

How the results depend on the processing

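Taken as a share of plasma cells instead of barcodes, the ratio of combination to LTbR agonist was 1.38, of LTbR agonist to untreated 1.67 and of combination to untreated 2.31. Thinned to 2000 UMIs the ratio of STING agonist to untreated was 1.20 and of combination to untreated 20.6, and with at least 10 heavy-chain UMIs combination to untreated was 5.81. Cycling members fell to 0 in the untreated and STING agonist libraries with at least 4 mitotic UMIs, after thinning or without mixed-lineage members. With LTbR agonist and combination they were 41.3% and 34.7% with at least 1 mitotic UMI, 6.52% and 5.79% with at least 4, and 4.35% and 2.48% after thinning. Genes higher and lower in IgM than IgG cells numbered 42 and 18 with DESeq2, 119 and 97 with no filter on low counts, and 6 and 0 with immunoglobulin genes in the totals, where edgeR gave 533 genes at an unadjusted p under 0.05. Without mixed-lineage cells 36 were higher and 9 lower. Leaving out a library gave 4 to 46 higher and 0 to 16 lower, namely 4 and 0 without LTbR agonist (358 at an unadjusted p under 0.05 in edgeR), 11 and 5 without combination, 12 and 4 without untreated, and 46 and 16 without STING agonist. The LTbR agonist and combination libraries alone, added after seeing the data, gave 247 and 127. The library is already the block in these fits of IgM against IgG. No paired analysis was possible because each group has 1 library, as far as treatments are compared. Genes past 2-fold between the treatments numbered 115 higher and 15 lower with all UMIs as the total, 295 and 176 with at least 20 UMIs, and 15 and 9 with at least 100. Without mixed-lineage members they were 37 and 21. Means over cells gave 180 higher and 44 lower, and 76 were higher and 19 lower without the cell with the most UMIs of each gene, added after seeing the data. The cause of these changes was not tested. Of the summary values, 72 stayed within their limits and 42 moved. Of the named genes' values, 357 kept side and direction, 89 no longer passed, 3 moved by more than their interval and 0 reversed. With 5 and 6 members, the number of cells limits what the untreated and STING agonist libraries can show.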
